A study of Mus musculus with 14 samples.

Results

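Single lung tumors of mice that carry the SPC/c-Myc transgene, 7 in all, were divided by their level of Cdk1, the kinase that drives cells into mitosis, and all other genes were compared between the 3 tumors with the higher and the 4 with the lower signal. The tumors were chosen by the signal of the one Cdk1 probe set of the array, with 350 as the limit. The high-Cdk1 tumors were middle tumors 2 and 3 and large tumor 1, and the low-Cdk1 tumors were middle tumors 1 and 4 and large tumors 2 and 3. They are 7 of the 14 arrays of the series, with 3 small tumor pools and 4 control lungs making up the rest. Middle tumors measured about 4 to 5 mm and large tumors at least 10 mm, and each came from 1 animal. A pool held 3 to 4 tumors of about 1 mm. All tumors were from c-Myc transgenic mice, kept as hemizygotes, in which a human surfactant protein C promoter directs c-Myc to the alveolar epithelium. Control lung came from non-transgenic animals. All mice were of the CD2F1-(DBA/2xBalb/C) background and 9 to 13 months old. RNA was hybridised to Affymetrix arrays (Murine Genome U74v2), and a value is the MAS 5 signal, a brightness in arbitrary units scaled to a target of 250 on each array.

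In the high-Cdk1 tumors the signal of Cdk1 was 513 in middle tumor 2, 354 in middle tumor 3 and 547 in large tumor 1, against 209, 92.3, 231 and 90.8 in the low-Cdk1 tumors (middle 1, middle 4, large 2 and large 3, an order kept below). Middle tumor 3 lies just inside the limit and large tumor 2 just outside it. The small tumor pools, which took no part in the division, had 416, 539 and 529.9, and the 4 control lungs 25.7, 35.7, 31.9 and 16.8. These levels of the single tumors made the groups and are given as a description. For the same reason no test was made between the 2 groups, and the differences below describe 7 tumors. Since tumors were measured whole, fewer dividing cells and less RNA per cell cannot be told apart.

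The array of middle tumor 3 stood apart from the others. On it 3125 of 12488 values (25%) were below 1e-06 and were treated as missing, while no such value was found on the other 13 arrays. With these values still included, its trimmed mean signal was 196, against 250 on each of the other 13. Over the values present, its median signal was 119, against 91.0 to 117 on the other 13. Of 6913 probe sets compared, 1227 had no value in middle tumor 3, and for these the high-Cdk1 group is 2 tumors. The main counts are therefore given with and without it. Large tumor 2 was the sole single tumor with a high Xist signal, 931 against 6.18 to 27.6 in the other 6 tumors, and its Eif2s3y signal of 3.84 compared with 198 to 337 in those. Signals summed over 10 alveolar type II markers were 42722 to 56927 in high-Cdk1 tumors and 32685 to 50312 in low-Cdk1 tumors. Over 23 endothelial markers the sums were 3131 to 3677 in high-Cdk1 tumors and 3101 to 4647 in low-Cdk1 tumors, against 29064 to 36127 in control lung.

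Cdk1 is the catalytic subunit of a kinase whose activity depends on cyclins that build up before division and are destroyed at anaphase. It phosphorylates many proteins to condense chromosomes, break down the nuclear envelope and build the spindle. Its gene is transcribed late in the cell cycle with those of many mitotic proteins, which in cultured cells are held silent in early phases by the DREAM complex and switched on later by B-Myb and FoxM1. Many of these promoters carry the cell cycle homology region (CHR), TTTGAA, and CCAAT boxes bound by NF-Y.

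The promoters of Cdk1 and of 4 genes that were higher beside it are shown because they share both elements, with that of Meg3, the gene with the largest difference in the lower direction, for comparison. The 300 bases run from 250 before to 50 after the gene start on the gene's own strand (RefSeq, GRCm38.p6), and capitals mark TTTGAA and CCAAT on either strand (TTCAAA and ATTGG when read on the other). They lie at chr10:69352863-69353162 (Cdk1, minus strand), chr9:70421505-70421804 (Ccnb2, minus strand), chr4:118437294-118437593 (Cdc20, minus strand), chr7:122159185-122159484 (Plk1, plus strand), chr11:99024140-99024439 (Top2a, minus strand) and chr12:109540746-109541045 (Meg3, plus strand).
Cdk1: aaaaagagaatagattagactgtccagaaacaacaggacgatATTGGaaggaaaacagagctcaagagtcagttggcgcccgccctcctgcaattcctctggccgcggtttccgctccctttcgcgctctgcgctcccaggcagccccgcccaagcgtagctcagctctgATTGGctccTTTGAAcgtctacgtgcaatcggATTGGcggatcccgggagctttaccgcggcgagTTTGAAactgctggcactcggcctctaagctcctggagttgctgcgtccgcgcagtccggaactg
Ccnb2: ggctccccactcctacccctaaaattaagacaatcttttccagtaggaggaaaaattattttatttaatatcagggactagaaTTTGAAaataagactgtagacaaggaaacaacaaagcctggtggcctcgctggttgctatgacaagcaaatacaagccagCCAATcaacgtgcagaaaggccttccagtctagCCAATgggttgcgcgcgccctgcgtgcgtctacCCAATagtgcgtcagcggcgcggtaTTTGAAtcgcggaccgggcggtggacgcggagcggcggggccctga
Cdc20: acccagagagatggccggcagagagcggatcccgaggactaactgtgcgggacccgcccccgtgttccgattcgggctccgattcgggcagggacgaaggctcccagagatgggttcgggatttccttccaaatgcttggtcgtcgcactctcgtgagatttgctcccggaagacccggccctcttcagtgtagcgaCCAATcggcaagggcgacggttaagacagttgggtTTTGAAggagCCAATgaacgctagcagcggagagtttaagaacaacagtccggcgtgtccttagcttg
Plk1: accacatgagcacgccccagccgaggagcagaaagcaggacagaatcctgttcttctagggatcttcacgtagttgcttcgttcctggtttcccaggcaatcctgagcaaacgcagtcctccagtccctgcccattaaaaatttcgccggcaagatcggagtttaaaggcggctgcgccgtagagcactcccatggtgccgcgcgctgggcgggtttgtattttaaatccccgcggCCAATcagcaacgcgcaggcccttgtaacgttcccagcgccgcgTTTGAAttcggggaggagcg
Top2a: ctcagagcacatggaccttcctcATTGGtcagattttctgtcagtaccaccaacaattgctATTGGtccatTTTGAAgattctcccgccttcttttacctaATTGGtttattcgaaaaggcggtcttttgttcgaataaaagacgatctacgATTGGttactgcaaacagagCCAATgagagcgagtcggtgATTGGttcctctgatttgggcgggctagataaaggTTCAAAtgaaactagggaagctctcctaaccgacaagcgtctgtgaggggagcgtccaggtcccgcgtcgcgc
Meg3: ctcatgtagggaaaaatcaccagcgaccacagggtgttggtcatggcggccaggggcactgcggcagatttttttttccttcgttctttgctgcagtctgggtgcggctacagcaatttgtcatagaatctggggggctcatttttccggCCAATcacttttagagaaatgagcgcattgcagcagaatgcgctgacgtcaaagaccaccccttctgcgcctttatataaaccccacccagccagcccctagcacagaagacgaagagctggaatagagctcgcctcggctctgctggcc

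Cdk1 held 2 TTTGAA and 3 CCAAT in this window, Ccnb2 2 and 3, Cdc20 1 and 2, Plk1 1 and 1, and Top2a 2 and 6, whereas Meg3 held no TTTGAA and 1 CCAAT. Of the 40 named genes that were higher in high-Cdk1 tumors (counted below), 36 had a promoter in the table. TTTGAA was in 20 of these 36 (55.6%), against 12.3% of 4943 promoters of compared genes and 18.1% of all 27025. CCAAT was in 22 of 36 (61.1%), against 38.2% and 37.9%, and both together in 16 of 36 (44.4%), against 5.36% and 7.12%. The E-box CACGTG, the site of Myc and Max, was in 1 of 36 (2.78%), against 10.8% and 7.24%. The E2F words TTTGGCGC and TTTCCCGC were in 2 of 36 (5.56%), against 3.30% and 1.63%. Among 7 promoters of genes that were lower, 1 held TTTGAA, 3 CCAAT and none both, CACGTG or an E2F word. Matches of so few letters are a description of the window and not of binding, and motifs were found independently, so a base may count for more than 1 word. Of genes with several starts in the table the first was used.

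Genes of mitosis were the largest group among those higher in the high-Cdk1 tumors. A probe set was counted as higher where every high-Cdk1 tumor with a value lay above every low-Cdk1 tumor and the mean log2 signal differed by at least 1, that is 2-fold, with signals below 70 set to 70, the level from which the methods count a gene as expressed. By this rule 43 of 6913 probe sets (0.622%) were higher and 13 (0.188%) lower. The lists of spindle genes and of Cdk1 partners held 20 of the 43. The 43 are 40 named genes and 3 probe sets without a single gene name, and the 13 are 9 and 4. Of the 43, 10 had no value in middle tumor 3, and of the 13, 7, so these compare 2 high-Cdk1 with 4 low-Cdk1 tumors. Where not stated below, this holds for Cip2a, Spdl1, Slain1, Rgs10, Fam171a1 and probe sets 161046_at, 162044_f_at and 102094_f_at. The median difference was 1.29 for the 43 and -1.36 for the 13, beside -0.014 over all compared probe sets. Without the demand for 2-fold, 253 probe sets were above and 172 below with no overlap. Without middle tumor 3 the counts were 61 higher and 34 lower, and 42 and 12 of these were among the 43 and the 13. Col6a3 (0.90 without it) and Gstm3 (-0.96) were the ones that no longer reached 2-fold. Counted genes had 22 further probe sets, and 9 of these reached 70 on at least 3 arrays. All 9 differed in the same direction, but that of Meg3 was the only one counted as well, and the others had smaller differences than the probe set used, such as 0.86 and 1.02 for Plk1, 0.47 for Col1a1, 0.17 for Col3a1, -0.32 for Enah, -0.42 for Iigp1 and -0.11 for Gstm3. Without middle tumor 1 there were 84 higher and 41 lower, and without large tumor 2 there were 64 and 39. Without middle tumor 4 there were 41 and 27. Separation without overlap is easier to reach with fewer tumors, so counts with a tumor left out do not compare directly with 43 and 13.

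**Figure D1:**
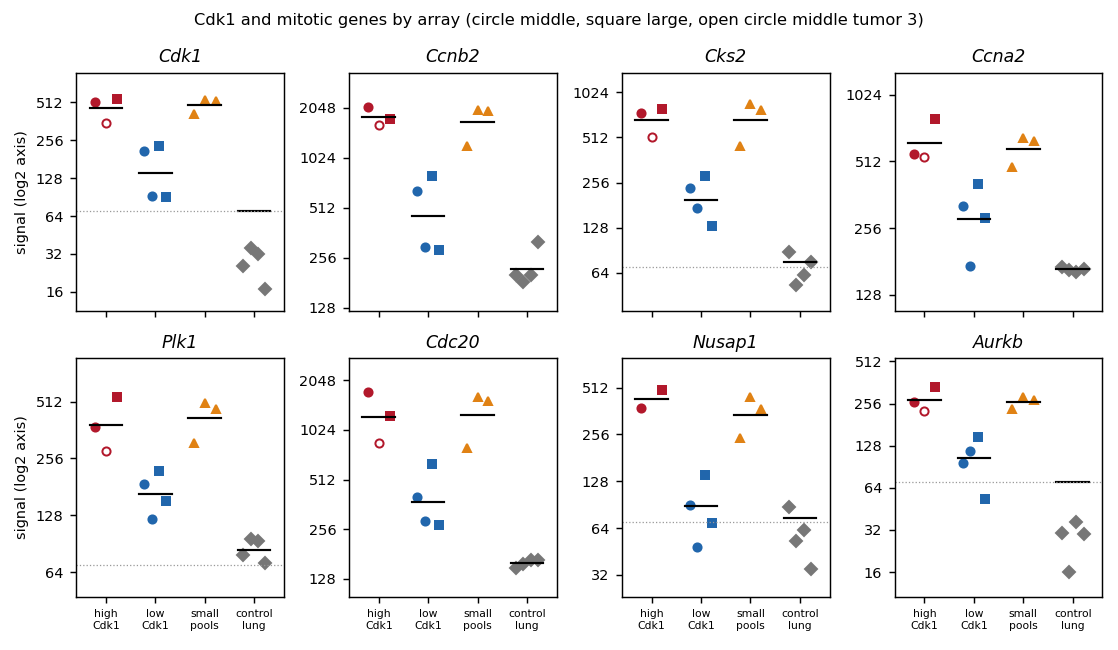
Signal of Cdk1 and 7 mitotic genes on each of the 14 arrays, on a log2 axis, for high-Cdk1 tumors, low-Cdk1 tumors, small pools and control lung. Points are arrays (the open circle is middle tumor 3, missing for Nusap1), bars are means of log2 signals with a floor of 70 (dotted line). In each panel the high-Cdk1 tumors lie above the low-Cdk1 tumors, for Ccnb2 at 1618 to 2058 against 283 to 798.

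Partners of the kinase came first. Ccnb2, cyclin B2, had signals of 2058, 1618 and 1736 in high-Cdk1 tumors, against 642, 296, 798 and 283 in low-Cdk1 tumors, a difference of 1.98 on the log2 scale (SD within groups 0.60, n = 3 and 4) or 3.94-fold. The 2 groups did not overlap, the pools had 1202, 1970.2 and 1950.0, and 2 of the low-Cdk1 tumors were within the range of the control lungs (183 to 318). Cks2, a small subunit that helps the kinase dock on its substrates, was at 742, 513 and 794 in high-Cdk1 tumors, against 234, 172, 285 and 130.2 in low-Cdk1 tumors (1.77, SD 0.44). Ccna2, cyclin A2 of S and G2 phase, had 555, 536 and 799 in high-Cdk1 tumors, against 321, 172, 405 and 285 in low-Cdk1 tumors (1.13, SD 0.45). Plk1, the polo kinase that helps activate Cdk1 and later builds the spindle poles, had 377, 279.9 and 542 in high-Cdk1 tumors, against 187, 122, 219 and 153 in low-Cdk1 tumors (1.21, SD 0.41).

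Of 17 listed partners and regulators of Cdk1, 13 were measured, and the 4 above were the ones counted as higher, with none lower and a list median of 0.63. Cdc25c, a phosphatase that activates the kinase, had 189, 195 and 227 in high-Cdk1 tumors, against 145, 32.0, 146 and 85.4 in low-Cdk1 tumors. These did not overlap, but the difference of 0.94 (SD 0.43) stayed under 2-fold. Ccnf differed by 0.63 and overlapped, and Cks1b, the other Cks subunit, by 0.60, with 1054 in large tumor 2 above 880.4 in middle tumor 3. Foxm1, the late cell cycle activator, had 442, 488 and 737 in high-Cdk1 tumors, against 299, 234, 419 and 465 in low-Cdk1 tumors, and the groups overlapped (0.67, SD 0.43). Mybl2, which encodes B-Myb, lay near the floor of 70 in all 6 tumors with a value (50 to 105). The phosphatase Cdc25a (-0.03), the inhibitory kinase Wee1 (-0.10) and the inhibitor Cdkn1a (-0.22) overlapped. Cdkn1a was highest in middle tumor 3 at 785, against 303 and 349.9 in the other high-Cdk1 tumors. Cdkn3, a phosphatase that acts on Cdk proteins, was at most 72.3 in all 7 single tumors.

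The spindle and its checkpoint formed the largest group. Of 46 listed genes of spindle, kinetochore and anaphase, 37 were measured, 16 were higher and none lower, 36 had a positive difference, and the median was 0.91. Without middle tumor 3, 21 were higher and the median was 1.24. Nusap1, a microtubule binding protein of the spindle, had 381 in middle tumor 2 and 494 in large tumor 1, with no value in middle tumor 3, against 90.1, 48.6, 140.5 and 68.9 in low-Cdk1 tumors (2.29, SD 0.43, n = 2 and 4). Cdc20, the activator of the anaphase-promoting complex, was at 1741, 849 and 1240.3 in high-Cdk1 tumors, against 400.2, 287, 638 and 271 in low-Cdk1 tumors (1.71, SD 0.55). Mad2l1, a checkpoint protein that restrains Cdc20, was at 421, 259 and 675 in high-Cdk1 tumors, against 156, 105, 182 and 143 in low-Cdk1 tumors (1.55, SD 0.51). In all 3 genes large tumor 2 was the highest of the low-Cdk1 tumors, and for Cdc20 and Mad2l1 middle tumor 3 was the lowest of the high-Cdk1 tumors.

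The chromosomal passenger complex, which corrects faulty attachments and guides cytokinesis, was represented by 3 genes counted as higher. Birc5, survivin, had 211, 215 and 375 in high-Cdk1 tumors, against 46.4, 30.6, 105 and 21.4 in low-Cdk1 tumors (1.73, SD 0.38). Aurkb, its kinase, had 264, 226 and 336 in high-Cdk1 tumors, against 96.1, 118, 147 and 53.1 in low-Cdk1 tumors (1.39, SD 0.40). Cdca8, borealin, differed by 1.16. Incenp, the scaffold of the complex, differed by 0.76 and was not counted. Of the 4 low-Cdk1 tumors, 3 were below the floor of 70 for Birc5, so its difference and SD are smaller on this scale than in the signals. The same held, for 2 or 3 of these tumors, for Nusap1, Cip2a, Kif2c, Top2a and Aurka, among others.

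Of the 6 measured Kif genes in this list 3 were counted as higher, whereas Kif4 (0.66) and Kif23 (0.77) overlapped and Kif20a (0.89) separated the groups at under 2-fold. Kif2c, a kinesin that takes microtubules apart at kinetochores, had 212 and 229.9 in high-Cdk1 tumors (middle 2 and large 1), against 74, 44.5, 96.0 and 58.6 in low-Cdk1 tumors (1.52, SD 0.19). Kif22, a chromosome-arm kinesin, had 824, 731 and 1009 in high-Cdk1 tumors, against 382, 254, 441 and 253 in low-Cdk1 tumors (1.39, SD 0.35). Kif11, the motor that separates spindle poles, differed by 1.26. Among genes of cytokinesis, Ect2, the exchange factor that starts the cleavage furrow, was at 430.3, 229 and 373 in high-Cdk1 tumors, against 115, 82.9, 141 and 106 in low-Cdk1 tumors (1.61, SD 0.39). Its partner Racgap1 differed by 1.29, the furrow protein Anln by 1.42 and the midzone protein Prc1 by 1.14. Mki67, the proliferation marker Ki-67, had 435, 224 and 626 in high-Cdk1 tumors, against 120.2, 50.6, 241 and 33.7 in low-Cdk1 tumors. Its difference of 1.85 was among the largest, yet large tumor 2 exceeded middle tumor 3, so it was not counted.

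Genes of chromosome structure were Smc2, a condensin subunit (1.46), Hmgb2 (1.41) and Top2a, topoisomerase II alpha, with 179, 94.8 and 315 in high-Cdk1 tumors, against 87.8, 23.8, 91.5 and 23.0 in low-Cdk1 tumors (1.14, SD 0.57). Other higher genes with known parts in division were Cip2a (1.80), an inhibitor of protein phosphatase 2A, Ckap2 (1.17), Iqgap3 (1.16), Spdl1 (1.1), Aurka (1.05) and Slain1 (1.02). In cells, Slain proteins bind growing microtubule ends and Spdl1 recruits dynein to kinetochores.

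**Figure D2:**
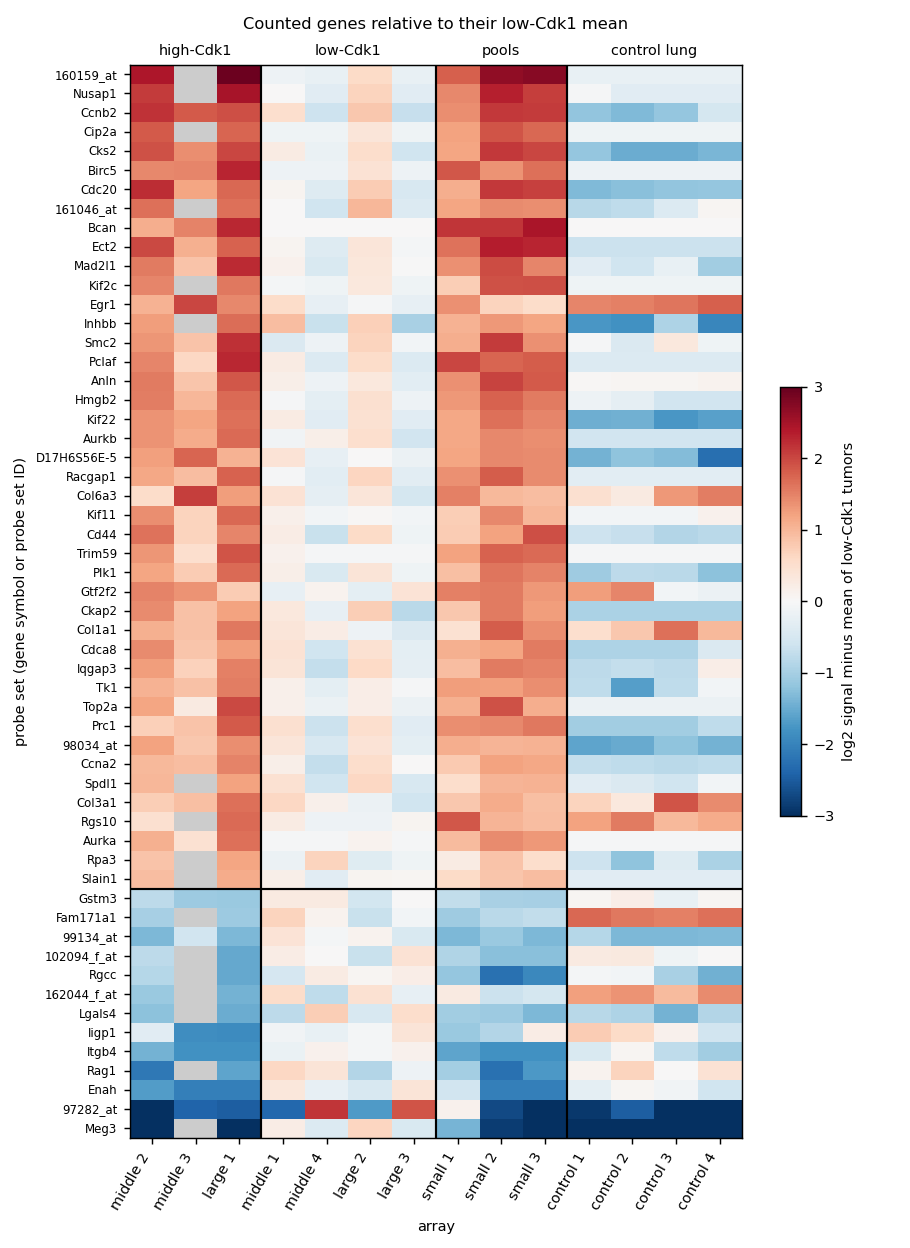
Log2 signal of the 43 higher and 13 lower probe sets on the 14 arrays, as the difference from the mean of the low-Cdk1 tumors (colour scale, cut at 3 in both directions; floor of 70; gray has no value). Rows are ordered by difference. Low-Cdk1 tumors middle 4 and large 3 are lower than middle 1 and large 2 in 32 of the 43 upper rows, and 37 of these 43 rose in the pools against control lung.

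The low-Cdk1 tumors were not alike. Middle tumor 4 and large tumor 3, with the 2 lowest Cdk1 signals, were both below middle tumor 1 and large tumor 2 in 32 of the 43 higher probe sets (74.4%), an order found in 22.7% of all compared. Middle tumor 3 was the lowest of the high-Cdk1 tumors in 25 of the 33 higher probe sets with a value on it (75.8%), against 38% of 5686. The genes were chosen on these same tumors and by the same Cdk1 signals, and many act in mitosis together. Both orders are therefore given as a description only. The 33 higher probe sets measured on all arrays had a median signal of 304, 249 and 429.9 in high-Cdk1 tumors, and of 158, 97.9, 182 and 109.8 in low-Cdk1 tumors. It was 312, 388 and 385 in the pools and 87.5, 73.5, 86.0 and 84.1 in control lung. The choice of the genes fixes that the medians of high-Cdk1 tumors exceed those of low-Cdk1 tumors, but not where the pools and the control lungs lie.

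DNA replication genes differed less. Of 46 listed, 35 were measured, 2 were higher and none lower, 32 had a positive difference, and the median was 0.43, with 7 higher without middle tumor 3. Tk1, thymidine kinase, had 454, 402 and 640.3 in high-Cdk1 tumors, against 245, 179, 252 and 214 in low-Cdk1 tumors (1.15, SD 0.28). Rpa3, a subunit of the single-strand binding protein, had 412 and 517 in high-Cdk1 tumors (middle 2 and large 1), against 200, 362, 176 and 207 in low-Cdk1 tumors (1.03, SD 0.42). Pclaf, a PCNA-binding factor outside the list, differed by 1.45 (SD 0.64). The ribonucleotide reductase subunit Rrm1 differed by 1.37 and overlapped, and Pcna itself by 0.06. The 17 measured G1/S regulators held none higher or lower (median 0.00), the 21 DNA repair genes none (median 0.06) and the 29 ribosome biogenesis genes none (median -0.11). Over all compared probe sets 0.622% were higher and 0.188% lower, so a list of this size may hold none without differing from the rest. Myc was at 1246, 451 and 2165 in high-Cdk1 tumors, against 325, 759.6, 2008 and 1055 in low-Cdk1 tumors, and the groups overlapped. Its signals were 1391 to 1738 in the pools and 24.1 to 35.6 in control lung. Max, its partner, differed by 0.22 and overlapped.

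**Figure D3:**
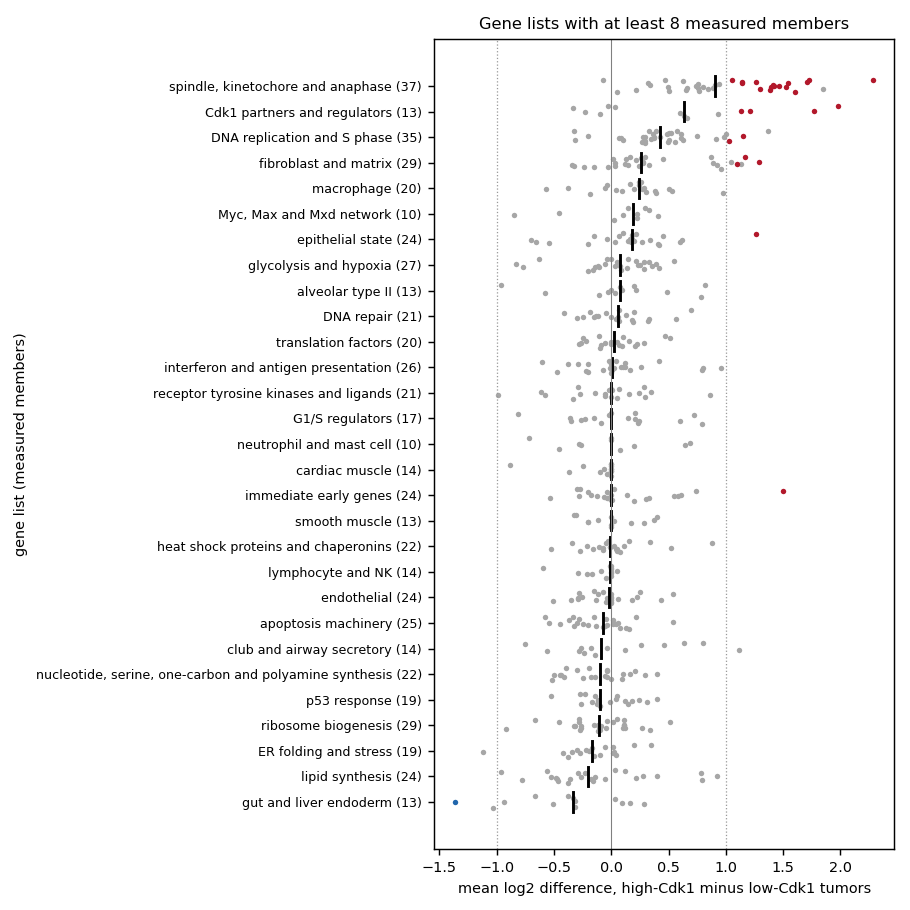
Difference in mean log2 signal, high-Cdk1 minus low-Cdk1 tumors, for each measured gene of the lists with at least 8 measured members (number in parentheses). Red points were counted as higher, blue as lower, gray as neither, black bars are medians and dotted lines mark 2-fold. The spindle list lies furthest right with a median of 0.91, and gut and liver endoderm genes furthest left at -0.33.

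Beyond the cell cycle, 3 collagen genes were higher. Col1a1 had 760.3, 667 and 1085 in high-Cdk1 tumors, against 468, 426, 329.6 and 268 in low-Cdk1 tumors (1.17, SD 0.36), while Col3a1 differed by 1.1 and Col6a3 by 1.29. Of the 29 measured fibroblast and matrix genes these 3 were higher and none lower, with a median of 0.26. Summed over 25 of them the signal was 18466 to 24310 in high-Cdk1 tumors and 12966 to 20322 in low-Cdk1 tumors, against 29886 to 33796 in control lung. The part of stromal cells in the collagen values was not tested. Among macrophage markers, none of 20 was higher or lower (median 0.24), beside 0.622% higher and 0.188% lower over all compared probe sets. Cd44, a hyaluronan receptor, was at 619, 318 and 549.8 in high-Cdk1 tumors, against 233, 125, 295 and 181 in low-Cdk1 tumors (1.26, SD 0.52). Inhbb, the beta B subunit of activin and inhibin, had 648 and 857 in high-Cdk1 tumors (middle 2 and large 1), against 517, 169, 444 and 137 in low-Cdk1 tumors (1.46, SD 0.85). Bcan, a proteoglycan known from brain matrix, had 149.6, 196 and 335 in high-Cdk1 tumors and was below 70 in all 4 low-Cdk1 tumors (9.08 to 34.2). Egr1, an immediate early transcription factor, had 203, 389 and 267 in high-Cdk1 tumors, against 142, 82.4, 95.1 and 82.1 in low-Cdk1 tumors (1.5, SD 0.42). It was the only higher one of 24 immediate early genes measured. The rest of the 43 were Trim59 (1.23), D17H6S56E-5 (1.34), Gtf2f2 (1.21), Rgs10 (1.09) and the probe sets 160159_at (2.69), 161046_at (1.64) and 98034_at (1.14), which have no single gene name. Probe set 160159_at had the largest difference of the 43, with 436 and 626 in high-Cdk1 tumors (middle 2 and large 1), against 73.5, 27.2, 121 and 23.5 in low-Cdk1 tumors.

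Fewer genes were lower in the high-Cdk1 tumors, and they shared no list. Meg3, a maternally expressed noncoding RNA of the imprinted Dlk1-Dio3 domain on chromosome 12, had 197 in middle tumor 2 and 90.5 in large tumor 1, with no value in middle tumor 3, against 3811, 2453, 5097 and 2368 in low-Cdk1 tumors. The difference was -4.61 (SD 0.61, n = 2 and 4), that is 24.4-fold lower in high-Cdk1 tumors. The further Meg3 probe set, 160173_at, had 302 and 83.0 in these high-Cdk1 tumors, against 861, 1316, 4006 and 1006 in low-Cdk1 tumors (-3.21). Both Meg3 probe sets separated the groups, and in control lung the first one was at 15.9 to 32.7. The pools spread over 1247, 454 and 17.3. Probe set 97282_at, which has no gene name in the annotation used, had 188, 400.2 and 377 in high-Cdk1 tumors, against 411, 9373, 651 and 7854 in low-Cdk1 tumors (-2.79, SD 1.87). Among the single tumors its high values belonged to middle tumor 4 and large tumor 3 alone. The pools had 2307, 323 and 237 for it, against 234 to 380 in control lung.

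Enah, an actin regulator of cell edges, had 90.6, 40.1 and 15.6 in high-Cdk1 tumors, against 369, 246, 208 and 379.8 in low-Cdk1 tumors (-1.93, SD 0.36). Itgb4, the integrin beta 4 of hemidesmosomes, had 91.9, 51.1 and 38.7 in high-Cdk1 tumors, against 216, 271, 235 and 269 in low-Cdk1 tumors (-1.69, SD 0.19). For both genes 2 of the 3 high-Cdk1 tumors were below the floor of 70, so that the difference is smaller on this scale than in the signals. Rag1, best known as a recombinase of lymphocytes, had 89.0 and 131 in high-Cdk1 tumors (middle 2 and large 1), against 612, 519, 215 and 357 in low-Cdk1 tumors (-1.87, SD 0.61). The further Rag1 probe set, 93683_at, was at 1.09 to 5.49 in the 7 single tumors, far below the floor, and does not show the difference. None of the 14 measured lymphocyte and NK genes was higher or lower, beside 0.622% and 0.188% of all compared probe sets. Of the 14, 5 were below 70 in all single tumors and could not be counted.

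Iigp1, an interferon-inducible GTPase, had 204, 72.0 and 68.8 in high-Cdk1 tumors, against 243, 223, 250.3 and 338 in low-Cdk1 tumors (-1.37, SD 0.59). Lgals4, a galectin of gut epithelium, had 128 and 106 in high-Cdk1 tumors (middle 2 and large 1), against 175, 499, 216 and 429 in low-Cdk1 tumors (-1.36, SD 0.65). It was the only one of 13 gut and liver endoderm genes counted as lower, and their median was -0.33. Rgcc, a cell cycle regulator, had 873 and 552 in high-Cdk1 tumors, against 1115, 1879, 1656 and 1829.9 in low-Cdk1 tumors (-1.19, SD 0.38). Gstm3 (-1.0), a glutathione transferase, and Fam171a1 (-1.05) completed the named genes. Probe sets 162044_f_at (-1.26), 102094_f_at (-1.15) and 99134_at (-1.09) have no single gene name.

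**Figure D4:**
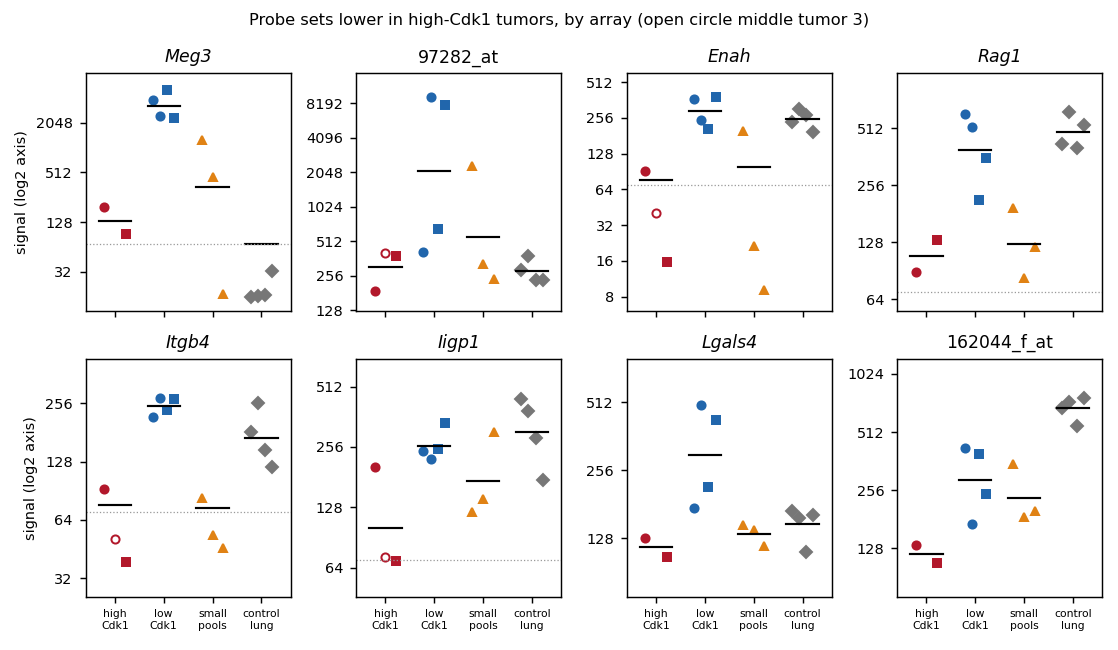
Signal of the 8 lower probe sets with the largest differences, on each array, on a log2 axis, with the same groups and symbols as in the plot of mitotic genes. Meg3 is at 90.5 and 197 in high-Cdk1 tumors and at 2368 to 5097 in low-Cdk1 tumors, and 97282_at is at 9373 and 7854 in 2 of the low-Cdk1 tumors.

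Both groups held middle and large tumors, and the differences were also taken within each size. Since the probe sets were chosen on these same tumors, their direction within each size was fixed in advance. The counts are a description, and the part of tumor size was not tested. Within the middle tumors (2 against 2), 35 of the 43 higher and 10 of the 13 lower probe sets differed by at least 2-fold, with medians of 1.21 and -1.22. Within the large tumors (1 against 2) the numbers were 42 and 11, with medians of 1.61 and -1.52. The gap between the sizes was widest for Col3a1, at 0.43 within middle and 2.04 within large tumors, followed by Rag1 (-2.66 and -1.08), Meg3 (-3.96 and -5.26), Rgs10 (0.44 and 1.73), Top2a (0.73 and 1.97) and Col1a1 (0.67 and 1.87). Differences of Ccnb2 were 2.07 within middle and 1.87 within large tumors.

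Tests were made in other mice, the small tumor pools and the control lungs. They compare tumor with normal lung, so the difference between high-Cdk1 and low-Cdk1 tumors was not tested by them. Over all 6914 probe sets, Cdk1 included, 1673 (24.2%) rose and 1347 (19.5%) fell in the pools at an adjusted p under 0.05 (limma, Benjamini-Hochberg, n = 3 and 4). Cdk1 itself rose by 2.81 on the log2 scale (SE 0.14, limma adjusted p = 1.38e-05). Of the 43 probe sets higher in high-Cdk1 tumors, 37 (86.0%) rose and 1 fell in the pools, and their median difference was 1.84, beside 0.0027 over all compared. Of the 13 lower, 7 (53.8%) fell and none rose in the pools (1 at an unadjusted p under 0.05 and none by the methods' unpaired test after adjustment), with a median of -1.14. This comparison shares no array with the division by Cdk1, although the filter on low signals used all 14 arrays.

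Among mitotic genes the pools stood far above control lung. Cks2 had 450.4, 861 and 786 in the pools, against 87.5, 52.8, 62.0 and 75.8 in control lung, a rise of 3.16 (SE 0.24, limma adjusted p = 5.6e-05). Kif22 rose by 3.00 (SE 0.16, limma adjusted p = 1.59e-05), Cdc20 by 2.98 and Ccnb2 by 2.92. Of the 37 spindle genes 34 rose and none fell, and of the 35 replication genes 24 rose and none fell. Cks1b, which overlapped between the single tumors, rose by 3.20 in the pools (limma adjusted p = 2.6e-05). Ribosome biogenesis genes, with 26 of 29 that rose and a median of 1.54, did so as well, although none was counted between the single tumors. In the alveolar type II list 8 of 13 rose and none fell, and in the endothelial list none rose and 22 of 24 fell.

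Of the higher genes, Egr1 fell in the pools, with 253, 155 and 143 in the pools against 269 to 339.9 in control lung (-0.73, SE 0.22, limma adjusted p = 0.0269). The call of Egr1 was lost in 9 of the alternatives, with -0.58 without pool 3. The remaining 5 did not pass. They were Col1a1 (0.25, limma adjusted p = 0.623), Col3a1 (-0.13, limma adjusted p = 0.802), Col6a3 (0.25, limma adjusted p = 0.578), Gtf2f2 (0.84, limma adjusted p = 0.153), a subunit of a general transcription factor, and Rgs10 (0.050, limma adjusted p = 0.897), a regulator of G protein signalling. In each of these 5, at least 2 of the 4 control lungs were within or above the range of the high-Cdk1 tumors.

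Of the lower genes, Fam171a1 fell most, with 142, 169 and 179 in the pools against 849 to 988 in control lung (-2.49, SE 0.12, limma adjusted p = 1.27e-05). Rag1 fell by 1.97 (SE 0.30, limma adjusted p = 0.00126), Itgb4 by 1.19 (SE 0.25, limma adjusted p = 0.00608) and Enah by 1.33 (SE 0.38, limma adjusted p = 0.0229). The call of Itgb4 was lost when limma was fitted on all 4 groups, with the middle and large tumors included (limma adjusted p = 0.0759). Enah had 197, 21.3 and 9.04 in the pools, so that 1 pool was in the range of the control lungs (194 to 305), and its call was lost in 8 of the alternatives. Meg3 did not pass (2.28, SE 0.83, limma adjusted p = 0.0559). Without pool 3, the pool at the level of control lung, its difference was 3.43 and passed, as did 3.47 with no floor and 2.95 with a floor of 35. Rgcc (-1.14, limma adjusted p = 0.0507), Iigp1 (-0.81, limma adjusted p = 0.150) and Lgals4 (-0.14, limma adjusted p = 0.577) did not pass either. Rgcc passed in 5 of the alternatives, with differences of -1.45 to -1.14.

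**Figure D5:**
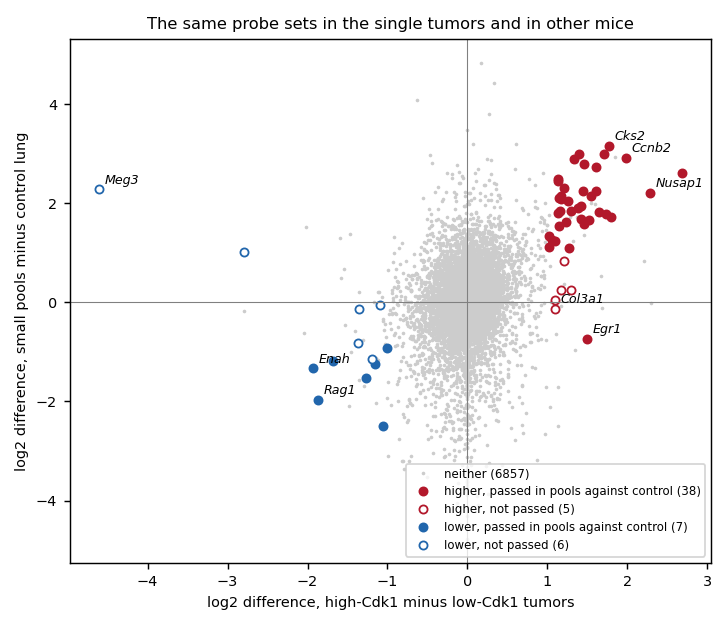
Each point is a probe set: the x axis is the log2 difference, high-Cdk1 minus low-Cdk1 single tumors, and the y axis the log2 difference, small pools minus control lung. Filled red and blue points were counted as higher or lower and passed the test in the pools, open ones did not. Of the 43 red points 37 are filled and above 0, Egr1 is filled and below 0, and Meg3 is open at -4.61 and 2.28.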

How the data were processed

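The authors computed the deposited signal intensity of each probe set with MAS 5 (GCOS, default settings), 1 array per sample, scaled to a target of 250. Neither scanner files nor detection calls entered the work. The table held 12488 probe sets, of which the 66 controls were dropped, and values below 1e-06 were missing. A probe set was compared if it reached 70 on 3 or more of the 14 arrays. Where a symbol had several, the brightest on average stood for it. This left 6914 (6128 with a symbol), 6913 without Cdk1. Lower signals were raised to 70 before taking log2.

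High-Cdk1 and low-Cdk1 tumors were compared without a test. At least 2 high-Cdk1 and 3 low-Cdk1 tumors with a value were needed. A difference is that of mean log2 signals, and its SD is pooled within both groups. The small tumor pools and control lung were compared with limma 3.58.1 (R 4.3.3; lmFit, eBayes with trend, these 7 arrays), with Benjamini-Hochberg adjustment over all 6914 probe sets and 0.05 as the threshold. The scripts were tested on simulated data. The number of arrays limits the precision.

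The members, the 34 gene lists and the tests were chosen with earlier results of these data known. Named, among probe sets with 1 symbol that held without middle tumor 3, were the 12 largest higher differences and the 8 lower ones (up to 12 were allowed), all measured Cdk1 partners, up to 4 counted members of each list, and Myc, Max and Mki67. Other genes were named from their lists or to account for all counted probe sets, after their values were seen. The alternatives were other floors, scalings, filters and fold limits, missing values kept at the floor, each array left out, each size alone and the ratio of mean signals. Further ones were limma on all 4 groups (control lung, small pools, middle and large tumors), the methods' unpaired test, and the replicate number as a block.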

Additional observations from a re-analysis of the deposited data

Results flagged for a closer look

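Among 69 groups of 4 arrays looked at for the named genes, 6 held an array far from the other 3 by Dixon's criterion on floored log2 signals. Chance flags about 1 in 20 groups, but this rate does not hold where the other 3 are at the floor. Any value above 70 is then flagged. In the low-Cdk1 tumors, large tumor 2 had 105 for Birc5, against 21.4 to 46.4 in the other 3, and 97.7 for Cip2a, against 41.3 to 56.7, so that in both cases the others were at the floor of 70. Middle tumor 4 had 50.03 for Mybl2, against 98.8 to 105 in the other low-Cdk1 tumors. In control lung, replicate 4 had 72.5 for Cdc25c, against 36.3 to 57.2, and 262 for Cdc25a, against 165 to 169, and replicate 1 had 87.0 for Nusap1, against 34.9 to 61.8. For Cdc25c and Nusap1 the others were again at the floor. No named gene separated the groups one way within the middle tumors and the opposite way within the large tumors.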

How the results depend on the processing

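The counts of 43 higher and 13 lower probe sets depended on the floor, the fold limit and single tumors. They were 65 and 32 with no floor, 111 and 61 at 1.5-fold, 10 and 5 at 3-fold, 66 and 44 at 2-fold with overlap allowed, 82 and 65 without the tumors next to the limit, and 163 and 116 within large tumors. Lower probe sets numbered 21 with a floor of 35, 32 with missing values kept at the floor and 51 within middle tumors. Leaving out each tumor in turn gave 30 to 84 higher and 16 to 41 lower. Counts with tumors left out or within 1 size do not compare directly with 43 and 13, because fewer tumors separate without overlap more easily. With quantile normalization they were 41 and 15, and with 1 median 54 and 9. A filter on the pools and control lung alone gave the same 43 and 13. With missing values kept at the floor, Rpa3 fell short at 0.12 and Inhbb at 0.33. Higher replication genes were 7 without middle tumor 3 and 4 with 1 median, against 2. No direction of a counted named gene changed, which the rule of counting fixes in advance where tumors are left out or 1 size is taken alone.

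In the pools, 37 of the 43 rose in all 16 alternatives. The 1 that fell was lost (0) with 1 median, no filter, limma on all 4 groups, the unpaired test, the replicate block, and 4 of 7 arrays left out (range 0 to 1). Of the 13, 1 rose with no floor or a floor of 35, and 0 to 1 when an array was left out, while 6 to 8 fell. Of the 34 lower probe sets counted without middle tumor 3, an alternative added after the data had been seen, 15 fell, and of the 61 higher, 53 rose. With each pool or control lung left out in turn, 1333 to 1742 of all probe sets rose and 1063 to 1482 fell. Pools and control lungs came from different animals and share only a number (deviations of same-numbered arrays correlated at 0.055, 0.046 and -0.046). With the replicate block, which needs replicates 1 to 3 only, 1507 of all probe sets rose and 1301 fell, and 37 of the 43 rose and 7 of the 13 fell. Signals near 70 carry little information on differences.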

Other observations

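Dlk1, a paternally expressed gene of the same imprinted domain as Meg3, was looked up after the values of Meg3 had been seen. Its signals were 560.3, 3830 and 163 in high-Cdk1 tumors (middle 2, middle 3 and large 1), against 6297, 1580.0, 3629 and 1854 in low-Cdk1 tumors (middle 1, middle 4, large 2 and large 3). Middle tumor 3, whose Meg3 values are missing, was thus within the range of the low-Cdk1 tumors for Dlk1, and the other high-Cdk1 tumors were below it. The small pools had 2890 for Dlk1 in pool 1, where Meg3 was highest, and 158 and 167 in the others, against 118 to 201 in control lung.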
